A study of Homo sapiens with 6 samples.

Results

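Near-silent genes that gained counts after knockdown of BAP18 are described here. The group holds 81 of the 35474 genes in the deposited count table, and its members were chosen by their counts: at most 10 in each of the 3 siCtrl libraries and at least 20 in each of the 3 siBAP18 libraries. The cells were A549, an established human lung adenocarcinoma line, collected 48 h after transfection with a control siRNA (siCtrl) or an siRNA to BAP18 (siBAP18), with 3 biological samples in each group. Poly(A) RNA was sequenced from each sample, and which of the study's 3 BAP18 siRNAs these cells received is not given in the sources used here, so effects of the siRNA sequence and of lower BAP18 cannot be told apart. The libraries held 53657450, 46035635 and 47099816 counts in siCtrl replicates 1, 2 and 3, and 53996860, 56548620 and 42094524 counts in siBAP18 replicates 1, 2 and 3.

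BAP18, listed as C17orf49, is a chromatin-associated protein that reads trimethylated lysine on histone H3 and is a subunit of complexes that remodel nucleosomes or methylate histones. A gene near silence in 1 cell line is commonly a gene of another lineage or of another cell state, whose promoter is packed in closed chromatin or lacks its activators. Immediate-early genes are a separate class, kept low in resting cells and transcribed within minutes of a stimulus without new protein synthesis.

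The knockdown was visible in the target, which is not a member. C17orf49 (chr17:7014495-7017525, GRCh38, + strand) had 743, 751 and 705 counts in siCtrl and 120, 137 and 108 counts in siBAP18. Its level fell by 2.65 on the log2 scale (SE 0.11, adjusted p = 7.3e-16 by edgeR's quasi-likelihood test, Benjamini-Hochberg over all genes tested). The A549 epithelial markers KRT8, KRT18, KRT19, EPCAM, CDH1 and 5 aldo-keto reductase and aldehyde dehydrogenase genes were detected in every library, with ALDH1A1 the most abundant of them in 5 of 6 libraries. Their summed level was 10247, 9995 and 10275 RPKM in siCtrl and 7175, 6906 and 7127 RPKM in siBAP18. Of 10 markers of leukocytes, erythroid cells, fibroblasts, endothelium and smooth muscle that were matched, 4 or 5 had at most 10 counts in each library. Their summed level was 2.28, 2.48 and 2.11 RPKM in siCtrl and 1.97, 1.91 and 1.92 RPKM in siBAP18, with COL1A1 the most abundant and the erythroid gene HBA1 at 0, 0 and 0 counts in siCtrl and 2, 2 and 0 in siBAP18.

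The rule fixed that the counts of the 2 groups did not overlap for any member, so the differences below are descriptions without a test. All 81 genes passed the filter on low counts that 20776 genes passed, and they passed it through the siBAP18 libraries. All 81 were also called higher by the rule used for other genes (adjusted p under 0.05 and log2 fold change over 1), beside 4.72% of all genes tested called higher, 3.74% called lower and 8.46% called in either direction, and nothing is read from that count because the same counts chose the members. The median fitted log2 fold change was 3.38 over the 81 genes, with a range of 1.41 to 10.48, and 0.00 over all genes tested. In 26 genes every siCtrl library held at most 3 counts, which is the floor that a count of 0 allows, and a fold change can be given for these only as a lower bound. With those 26 at their bound the median was 3.23.

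Complete silence was uncommon. Of the members, 9 of 81 had 0 counts in all 3 siCtrl libraries, whereas 44 had at least 1 count in each of them. The levels reached were low as well. In RPKM, which relates counts to gene length and library total, the median member had 0.0243 in siCtrl and 0.405 in siBAP18, and 19 of 81 exceeded 1 RPKM in siBAP18. The median member stood at the 51.5th percentile of all listed genes in siBAP18. Of the 40 protein-coding members, 2 exceeded the median of all protein-coding genes (1.62 RPKM), and these were STMN4 and RFPL4A. Summed over the 81 genes, the TMM-scaled level was 5.55, 7.10 and 6.76 CPM in siCtrl and 95.5, 85.4 and 82.9 CPM in siBAP18, CPM being a gene's count relative to the scaled library total.

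Most near-silent genes stayed near-silent. Of 14305 genes with at most 10 counts in each siCtrl library, 13038 also had at most 10 in each siBAP18 library, and the 81 members were 0.566% of the 14305. The opposite rule, at most 10 counts in each siBAP18 library and at least 20 in each siCtrl library, found 10 genes, or 0.0731% of the 13681 genes near silence in siBAP18. These were CDH16, SLC13A2, GCKR, TLDC2, GRAMD1C, ENTPD8, LINC01559 and 3 clone-named loci. The imbalance remained after scaling to equal library totals, with 73 against 10 genes, and after TMM scaling, with 71 against 10. Genes of low average level that were not members were also called more often. Of the 2559 with an average log2 CPM below -1, the class that holds 44 of the members, 9.96% were called higher and 5.86% lower. Of the 4624 genes above 5 the shares were 1.64% and 2.10%. These shares depend on the filter on low counts, which a gene low in siCtrl can pass through siBAP18, and the reverse. Of the 14305 near-silent genes 350 passed it, members included, and 240 of these were called higher and 0 lower. No conclusion is drawn from the shares for that reason.

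**Figure D1:**
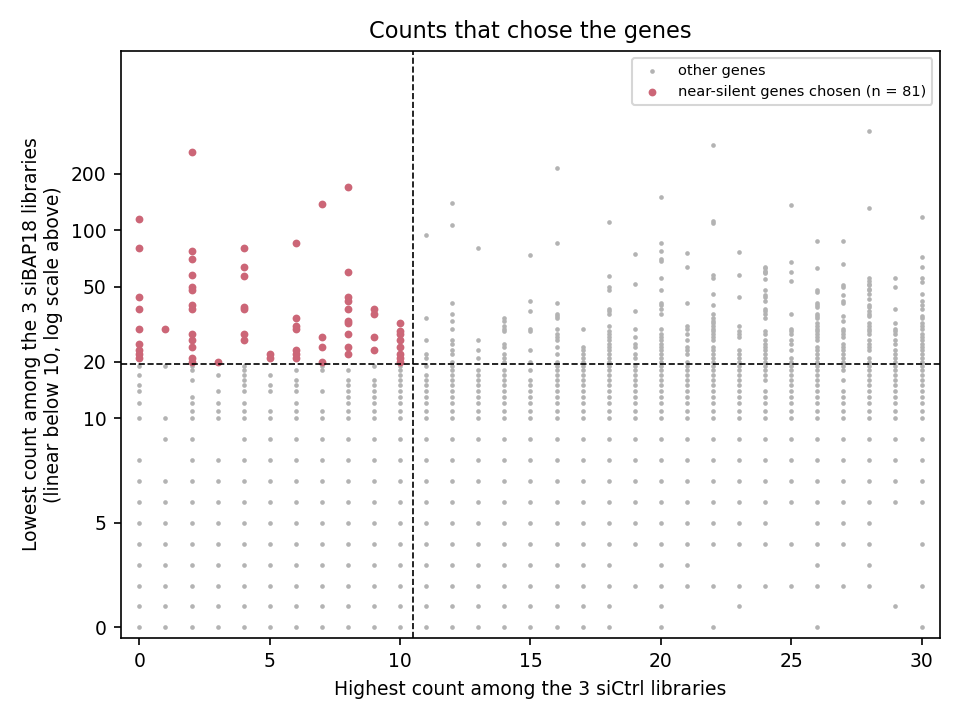
Each point is a gene, or several genes with equal counts, placed by its highest count among the 3 siCtrl libraries (x axis) and its lowest count among the 3 siBAP18 libraries (y axis, linear below 10 and logarithmic above), for genes with at most 30 siCtrl counts. The 81 members (red) fill the corner left of and above the dashed limits, and 18 of them sit at the limit of 10 siCtrl counts.

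The limits cut through a continuum. Just inside stood AC005532.5, with 8, 10 and 8 counts in siCtrl and 25, 29 and 20 in siBAP18, EPHA5-AS1, with 4, 10 and 6 against 32, 30 and 26, and GIPC3, with 10, 8 and 8 against 26, 32 and 42. GBP5 and RCSD1 also had 20 counts in their lowest siBAP18 library. Just outside stood RRAD, a small GTPase with 10, 4 and 11 counts in siCtrl and 155, 144 and 94 in siBAP18, PIWIL2 (6, 11 and 9 against 82, 54 and 34) and OFD1P2Y (6, 2 and 11 against 37, 26 and 28). ABCA13 was missed on the other side, with 0 counts in all siCtrl libraries and 26, 42 and 19 in siBAP18, as were RP11-351I24.1 (30, 46 and 19) and RP11-298A10.1 (43, 21 and 19). Replicate 3 of siBAP18 is the shallowest library and gave the lowest count in 64 of 81 members, and without it the rule found 138 genes.

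Low counts in these tables were mostly even. Among counts of 1 to 10, even numbers made up 76.7% to 78.7% in each library, whereas among counts of 5000 and more they made up 50.1% to 52.7%. The source of this difference was not tested. The floor of 3 counts, and the lower bounds on fold changes computed from it, take each count as a separate fragment, and the bounds would be smaller if 1 fragment could give more than 1 count.

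Early-response genes stood among the members with the largest gains. FOSB (chr19:45467995-45475179, + strand), a Fos-family subunit of the AP-1 transcription factor, had 8, 8 and 8 counts in siCtrl and 246, 261 and 170 in siBAP18, or 0.165 ± 0.0122 and 4.39 ± 0.176 CPM (mean ± SD over 3 libraries, as below). EGR2, a zinc finger transcription factor, had 2, 2 and 0 counts against 164, 188 and 70, which is at least 43.0-fold higher (2.65 ± 0.809 CPM). ARC, which encodes a cytoskeleton-associated protein best known from synapses, had 4, 4 and 0 counts against 166, 171 and 80 (2.65 ± 0.590 CPM). FOSB varied little among the siBAP18 libraries, with a coefficient of variation (CV) of 4.00%, whereas replicate 3 lay well below the other 2 in EGR2 (1.73 against 3.01 and 3.22 CPM) and ARC (1.97 against 3.05 and 2.93 CPM).

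Other AP-1 and immediate-early genes were higher in part. The list of 38 such genes held 3 members, beside 81 of all 35474 listed genes. Of the 29 others tested 12 were called higher and none lower, which is 41.4% beside 4.72% of all genes. The other 17 were not called, and their log2 fold changes ran from -0.72 for NR4A1 (adjusted p = 1.7e-06) and -0.38 for DUSP5 (adjusted p = 0.0013) to 0.89 for JUND (adjusted p = 1.3e-10). PPP1R15A, a phosphatase subunit of the integrated stress response, had 11369, 9855 and 10754 counts in siCtrl and 232944, 225012 and 158091 in siBAP18 (log2 fold change 4.20, SE 0.08, adjusted p = 1.2e-22). ATF3, a stress-induced partner of JUN, rose from 7.07 ± 0.499 to 137 ± 9.23 CPM (adjusted p = 2.2e-22). EGR1, with 18, 16 and 14 counts in siCtrl, was above the limit of 10 for near-silent genes in every siCtrl library. It reached 1580, 1490 and 1025 counts in siBAP18 (log2 fold change 6.33, SE 0.14, adjusted p = 9.1e-22). FOSL1 and JUN rose by 3.70 and 3.39 on the log2 scale, BTG2, MAFF and KLF6 by 2.17, 2.11 and 2.05, IER2 and KLF10 by 1.45 and 1.33, and FOS and NR4A3 by 1.25 and 1.05.

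**Figure D2:**
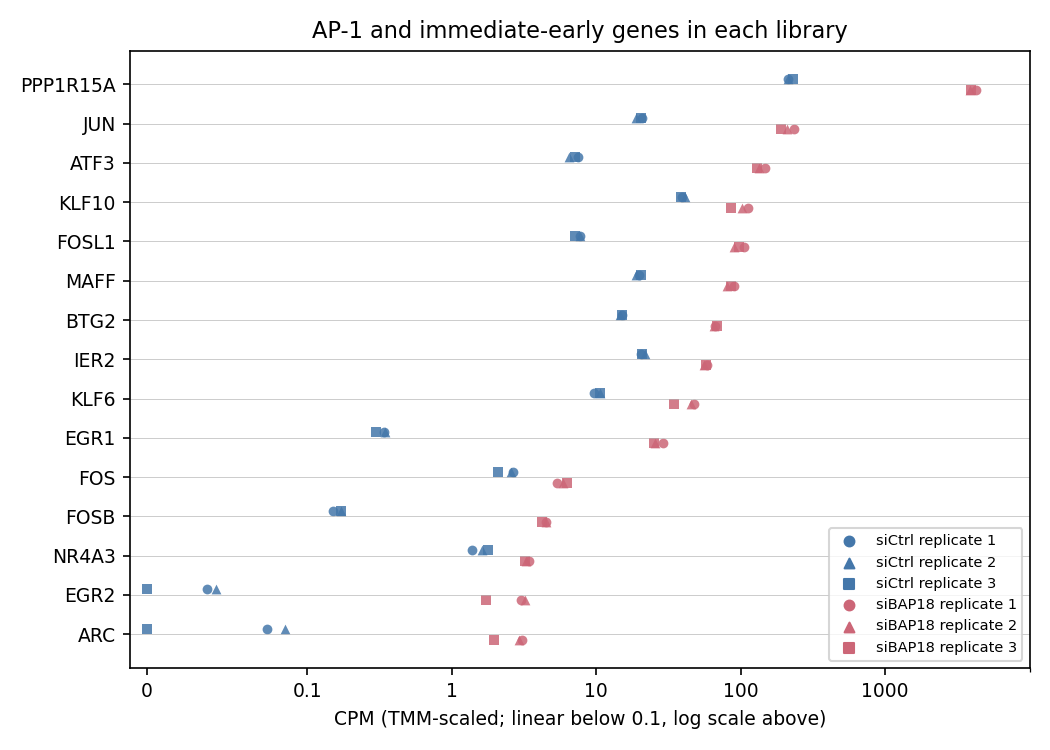
TMM-scaled level (CPM, x axis, linear below 0.1 and logarithmic above) of 12 called AP-1 and immediate-early genes and of the near-silent genes FOSB, EGR2 and ARC in each of the 6 libraries; points are single libraries. FOSB, EGR2 and ARC start from under 0.2 CPM in siCtrl and end between 1.73 and 4.52 CPM in siBAP18, below PPP1R15A, JUN and ATF3.

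Genes known from neurons and neuroendocrine cells formed a further group, assembled like the other functional groups below after the values were seen. STMN4, a stathmin that binds tubulin in neurons, had the highest CPM of all members, with 0, 0 and 2 counts in siCtrl and 372, 369 and 262 in siBAP18. That is 6.54 ± 0.267 CPM, at least 106-fold above the floor, and its 3 siBAP18 libraries lay close together (CV 4.09%). ACHE, the acetylcholinesterase that ends cholinergic transmission, had 6, 8 and 4 counts against 74, 98 and 60. PTPRN, a phosphatase-like protein of secretory granules, had 0, 2 and 2 against 47, 21 and 28 and was among the 4 most variable members (CV 40.2%). RGMA, an axon guidance molecule, reached 1.15 ± 0.218 CPM and PHF24 0.940 ± 0.0688 CPM. GAD1, which makes the transmitter GABA, and SYT14, a synaptotagmin, gained least in this group, with 24, 24 and 21 and with 32, 38 and 22 counts in siBAP18. The wider list of 76 neuronal and neuroendocrine genes held 1 member (STMN4). Of the 46 others tested 5 were called higher and 3 lower (10.9% higher, beside 4.72% of all genes tested), with a median log2 fold change of -0.19 beside 0.00 over all genes tested.

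**Figure D3:**
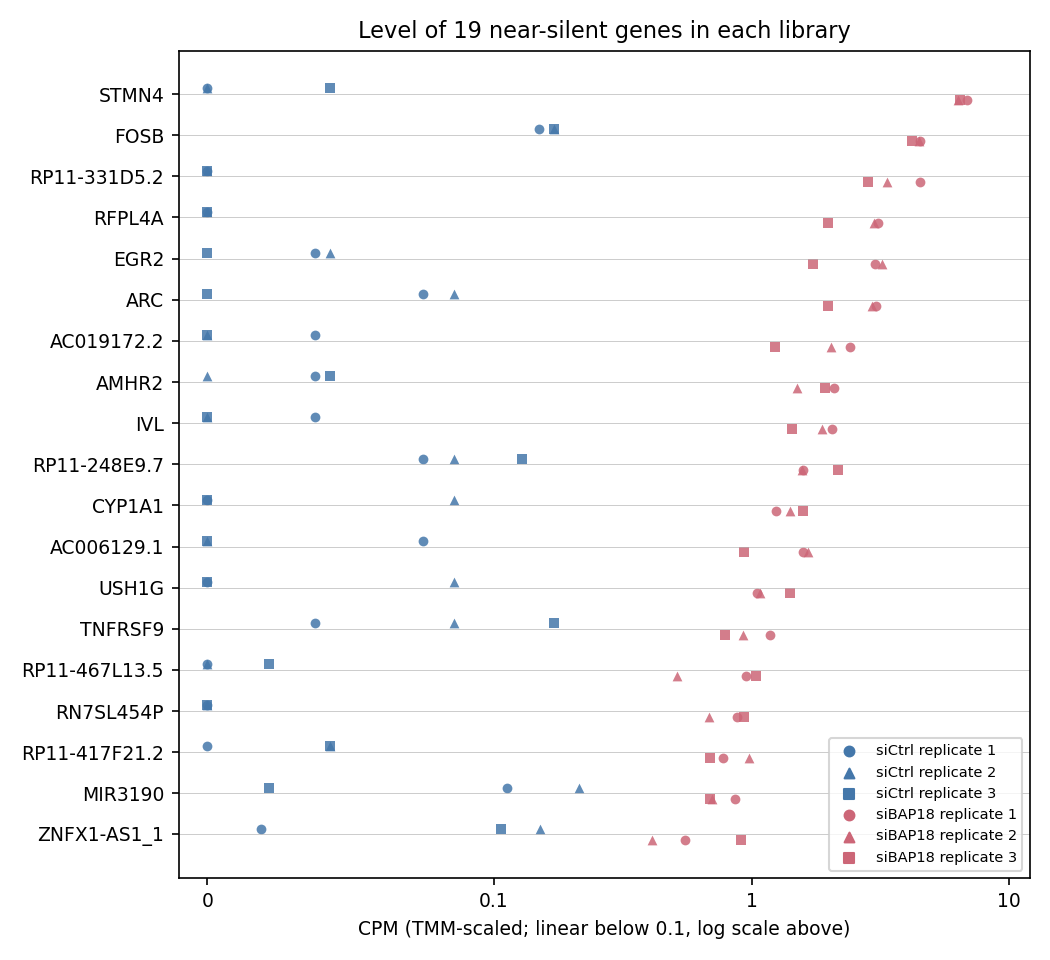
TMM-scaled level (CPM, x axis, linear below 0.1 and logarithmic above) of 19 members in each library, sorted by their mean in siBAP18; circles, triangles and squares are replicates 1, 2 and 3. The members shown are those with the highest RPKM or the largest ratio, with TNFRSF9, IVL and the early-response genes, and siBAP18 points lie right of siCtrl points for each gene, as the rule required.

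Transcription factors other than the early-response genes reached modest levels. MAF, a basic leucine zipper factor of lymphocytes, lens and other lineages, had 2, 2 and 0 counts against 80, 64 and 48 (1.25 ± 0.196 CPM, at least 20.3-fold higher). KLF15, a Kruppel-like factor of metabolic tissues, had 2, 4 and 2 against 54, 52 and 28. TBX15, a T-box factor of skeletal development, was the only member in the list of 317 homeobox, SOX, FOX and related developmental factors, with 6, 10 and 8 counts against 46, 68 and 32. ETV7, an ETS-family repressor, and the zinc finger genes ZNF556 and ZNF441 ended between 0.495 and 0.914 CPM. ZNF441 was among the least variable members (CV 3.64%).

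Genes of receptors, secreted proteins, signaling proteins and leukocytes were spread over a range of levels. CYTH4, a guanine nucleotide exchange factor for ARF GTPases found mainly in blood cells, had 5, 5 and 7 counts in siCtrl and 196, 189 and 138 in siBAP18 (3.41 ± 0.183 CPM, CV 5.36%). AMHR2, the receptor for anti-Mullerian hormone, had 2, 0 and 2 against 114, 88 and 78 (1.84 ± 0.303 CPM). TNFRSF9, the costimulatory receptor 4-1BB of activated T cells, had 2, 4 and 8 against 64, 54 and 32 and was the only member in the list of 58 hematopoietic and leukocyte genes. The soluble pattern receptor PTX3 reached 0.944 ± 0.14 CPM, the defensin DEFB1 0.655 ± 0.138 and the interferon-inducible GTPase GBP5 0.676 ± 0.190. WNT7A, a Wnt ligand, had the smallest fitted change of all members, with 10, 10 and 6 counts in siCtrl and 24, 24 and 24 in siBAP18 (log2 fold change 1.41). DUSP26, RCSD1 and CNKSR1 were also in this group and ended between 0.504 and 0.704 CPM.

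IVL and CYP1A1 were grouped as genes of epithelia and of the response to foreign compounds. IVL encodes involucrin, a precursor of the cornified envelope of keratinocytes, and had 2, 0 and 0 counts against 112, 110 and 58 (1.79 ± 0.324 CPM, at least 29-fold higher). It was the only member among 226 keratin and cornified envelope genes, of which 6 of 104 others tested were called higher and 3 lower (5.77% higher, near the 4.72% of all genes tested). CYP1A1, a cytochrome P450 induced through the aryl hydrocarbon receptor, had 0, 4 and 0 against 68, 82 and 64 (1.41 ± 0.165 CPM). USH1G and GIPC3, both needed in inner ear hair cells, and the myosin MYO16 (10, 1 and 6 counts against 38, 45 and 24) were also members. USH1G had 0, 4 and 0 against 57, 63 and 57, while GIPC3 had the largest CV of all members (44.2%), with 1.04 CPM in replicate 3 and 0.478 and 0.548 CPM in replicates 1 and 2. RFPL4A, named for a RING finger protein and known from oocytes, had 0 counts in every siCtrl library and 169, 175 and 80 in siBAP18 (at least 43.6-fold higher, 2.69 ± 0.625 CPM). IGSF22, VWCE and TMEM232 stayed between 0.477 and 0.633 CPM.

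Replication-dependent histone genes contributed 5 members, HIST1H4B, HIST1H4C, HIST1H1D, HIST1H2BE and the pseudogene HIST2H2BD. Their transcripts normally end in a stem-loop and carry no poly(A) tail, and their copies are nearly identical in sequence, so the assignment of reads to any of them is uncertain. HIST1H4C had 0 counts in each siCtrl library and 34, 26 and 23 in siBAP18, HIST1H4B had 0, 2 and 2 against 28, 32 and 24, and HIST1H1D had 2, 5 and 6 against 55, 57 and 31. HIST2H2BD had 4, 10 and 4 against 44, 43 and 29, and HIST1H2BE had 8, 4 and 10 against 39, 24 and 25. Among 36 other genes named HIST that were tested, a set also chosen after its values were seen, 28 were called higher and 0 lower (77.8% higher, beside 4.72% of all genes tested), with a median log2 fold change of 1.92.

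By GENCODE 29, 30 of the 81 members were long noncoding RNAs, 5 pseudogenes and 3 small RNAs, and 3 were not matched to an annotated gene. Protein-coding genes made up 49.4% of the members against 22.2% of the 14305 near-silent genes, pseudogenes 6.17% against 32.1%, and long noncoding RNAs 37.0% against 35.1%. Among all listed genes these shares were 49.9%, 19.1% and 25.2%, so that the protein-coding share of the members was near that of the whole table. Members were longer than near-silent genes at large (median 2170 against 823 bases), and 24.7% against 43.3% had a single exon, values near those of all listed genes (2176.5 bases and 26.3%). Longer genes collect more counts at equal abundance, and the part of length in this selection was not tested. The unmatched loci were AC019172.2, AC104654.1 (9, 7 and 8 counts against 43, 42 and 27) and MICALCL (4, 8 and 8 against 36, 33 and 34). The members lay on 21 chromosomes, with 12 on chromosome 1, 9 on chromosome 19 and none on X, Y or the mitochondrial genome.

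RP11-331D5.2 (chr7:157525783-157527325, + strand), a single-exon locus that GENCODE lists in its class TEC, for loci awaiting experimental evidence, had the highest CPM of the noncoding members, with 0 counts in each siCtrl library and 244, 195 and 115 in siBAP18. Its level of 3.55 ± 0.844 CPM was at least 57.6-fold above the floor. AC006129.1 (chr19:41531206-41532174, + strand), a long intergenic RNA, had 4, 0 and 0 counts against 86, 97 and 38, and AC019172.2 on chromosome 2 had 2, 0 and 0 against 131, 119 and 50. The processed pseudogene at chr12:87820654-87820918 (- strand; AC079598.3 in GENCODE 29, under a clone name in the count table and the plots) had 4, 4 and 6 counts against 86, 92 and 88. The processed pseudogene RP11-467L13.5 had 0, 0 and 1 against 52, 30 and 42, and the antisense locus RP11-417F21.2 had 0, 2 and 2 against 42, 57 and 28. Processed pseudogenes can share reads with a parent gene, so the values of the pseudogenes given here are uncertain. LINC01366, LINC01291, FAM225B, FAM90A28P and AC004603.4, the antisense RNA of PSG8, also had 0 counts in all siCtrl libraries, and they ended between 0.538 and 0.993 CPM. CLIP1-AS1 was the least variable member of all (CV 3.47%; 5, 8 and 9 against 29, 33 and 23 counts). LINC00620, EPHA5-AS1, ZNRF3-AS1 and LINC00475 ended between 0.581 and 0.988 CPM. Names of the LINC and antisense kind held 7 members of 1505, and clone-named loci 27 of 10525, beside 81 of all 35474 listed genes. Of 766 other LINC and antisense names tested, 67 were called higher and 24 lower (8.75% higher, beside 4.72% of all genes tested). Clone-named members ended between 0.483 and 3.55 CPM. Of 3940 other clone-named loci tested, 219 were called higher and 139 lower (5.56% higher, near the share of all genes).

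The 4 members with the highest RPKM were 80 to 265 bases long, whereas STMN4, also among the highest 10, had 3294 bases. MIR3190 (chr19:47226942-47227021, + strand), a microRNA hairpin of 80 bases, led with 9.42 ± 1.32 RPKM, from 6, 10 and 1 counts in siCtrl and 47, 41 and 28 in siBAP18. Its mature 3′ arm is shown, with the seed (bases 2 to 8) in capitals, to identify the annotated product, which these libraries of poly(A) RNA did not measure separately.
hsa-miR-3190-3p: uGUGGAAGguagacggccagaga
All 80 bases of the hairpin lie in an exon of BBC3, the pro-apoptotic p53 target PUMA, on the opposite strand. BBC3 itself had 404, 401 and 401 counts in siCtrl and 3648, 3494 and 2649 in siBAP18 (log2 fold change 2.96, SE 0.08, adjusted p = 1.1e-19). All 198 bases of ZNFX1-AS1_1, a small structured RNA of the antisense transcript ZFAS1, likewise lie in a ZFAS1 exon on the same strand. ZFAS1 had 6317, 5097 and 5613 counts against 12235, 13071 and 9171, whereas ZNFX1-AS1_1 had 1, 7 and 5 against 30, 24 and 37. RN7SL454P, a pseudogene of the signal recognition particle RNA, lies in an intron of the dynein gene DNAH17 and had 0 counts in siCtrl and 48, 40 and 38 in siBAP18, while DNAH17 rose by 1.23 on the log2 scale (SE 0.15, adjusted p = 2.7e-07).

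These cases were part of a wider overlap with other genes. By the positions in the count table, 33 of the 81 members overlapped another listed gene and 20 shared exon bases with one. Whether reads were counted by strand is not given in the sources used here, so reads of a member and of a gene sharing its bases cannot be told apart. Of the 16 tested genes that shared exon bases with a member and were not members, 10 were called higher and 0 lower (62.5%, beside 4.72% of all genes tested). Of the 10 tested genes that overlapped a member without sharing exon bases, 1 was called higher. RP11-96C23.14 (4, 8 and 6 counts against 43, 50 and 38) shared bases with AGAP11, BMS1P3, FAM25A and 2 clone-named transcripts at 1 locus on chromosome 10, and 4 of the 10 called genes belong to this locus. AGAP11 had 45, 39 and 34 counts against 353, 438 and 210 (log2 fold change 2.99, SE 0.17). RP13-270P17.3 and the clone-named locus at chr14:85528599-85529386 (AL049775.3 in GENCODE 29) shared 686 and 625 bases with opposite-strand transcripts called higher, and SYT14 shared 1860 bases with the same-strand transcript AL022397.1 (4, 2 and 2 counts against 21, 27 and 19). The 48 members that overlapped no other gene had a median fitted log2 fold change of 4.19.

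Genes next to members, without overlap, were counted in the same way. The nearest gene on either side of each member gave 160 genes that were not members, of which 86 were tested, and 16 were called higher and 2 lower (18.6% higher, beside 4.72% of all genes tested). Within 10 kb the share was 8 of 28 (28.6%), beyond 10 kb 8 of 58 (13.8%). The neighbour with the largest change was ATF3, beside RP11-61J19.5 (chr1:212557833-212559731, - strand), which lies 5603 bases away with its start side facing ATF3 on the opposite strand and had 0, 2 and 2 counts against 97, 80 and 40. PTPRN lies 2723 bases from DNAJB2, a chaperone gene that had 1336, 1194 and 1228 counts against 4606, 4482 and 3626 (log2 fold change 1.70, SE 0.07, adjusted p = 1.1e-15). Of the 8 within 10 kb, HIST1H2BD, HIST1H3B, HIST2H2AA3 and HIST2H4B are histone genes, in the clusters on chromosomes 6 and 1, and ZNF555 and ADIRF lie beside ZNF556 and RP11-96C23.14. Members also neighboured each other there. HIST1H4B, HIST1H4C, HIST1H2BE and HIST1H1D follow each other in this order, with gaps of 49613 to 76624 bases between consecutive members. HIST2H2BD lies 17738 bases from RP11-196G18.23. On chromosome 3, LINC00620 (4, 2 and 1 counts against 44, 63 and 26) lies 69621 bases from WNT7A, and FBLN2 on its other side had 4, 0 and 6 counts against 20, 18 and 12 (log2 fold change 2.21, SE 0.60, adjusted p = 0.0032).

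**Figure D4:**
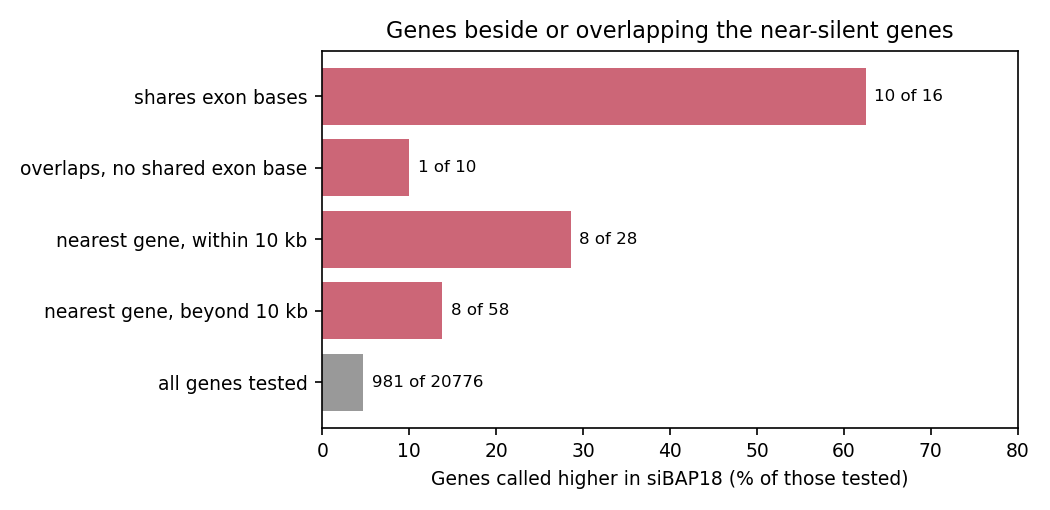
Share of tested genes called higher in siBAP18 (x axis, % of those tested, bars from 0) among genes that share exon bases with a member, overlap one without sharing exon bases, or are the nearest gene within or beyond 10 kb, beside all genes tested; members themselves are left out. The share is 62.5% where exon bases are shared, 28.6% for the nearest gene within 10 kb and 4.72% over all genes.

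Promoter sequences were read from RefSeq (GRCh38.p14; 250 bases before and 50 after the annotated start), which gave 32 of the 81 members, 27 of them with a RefSeq start within 2 kb of the start in the count table. The promoters of FOSB, IVL, MAF and RFPL4A are printed as examples of the 9 that hold the letters of a TATA box (TATAAA) on either strand. That motif is in capitals. So are an AP-1 site (TGANTCA) in IVL and the CRE core (TGACG) in FOSB. In MAF the full cAMP response element (TGACGTCA, which contains the CRE core) is in capitals. FOSB is at chr19:45467746-45468045 (+ strand), IVL at chr1:152908296-152908595 (+ strand), MAF at chr16:79600688-79600987 (- strand) and RFPL4A at chr19:55758847-55759146 (+ strand).
FOSB: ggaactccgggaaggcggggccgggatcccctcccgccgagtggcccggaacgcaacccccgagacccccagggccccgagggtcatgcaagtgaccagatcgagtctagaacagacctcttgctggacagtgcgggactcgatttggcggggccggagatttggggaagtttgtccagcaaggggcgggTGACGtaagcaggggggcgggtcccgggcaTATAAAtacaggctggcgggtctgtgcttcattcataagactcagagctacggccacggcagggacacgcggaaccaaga
IVL: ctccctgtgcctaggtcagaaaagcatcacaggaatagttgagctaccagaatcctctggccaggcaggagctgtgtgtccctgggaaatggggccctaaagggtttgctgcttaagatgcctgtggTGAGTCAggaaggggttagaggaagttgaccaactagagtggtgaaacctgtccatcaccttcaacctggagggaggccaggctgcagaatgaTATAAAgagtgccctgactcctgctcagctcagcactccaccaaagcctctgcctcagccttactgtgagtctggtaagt
MAF: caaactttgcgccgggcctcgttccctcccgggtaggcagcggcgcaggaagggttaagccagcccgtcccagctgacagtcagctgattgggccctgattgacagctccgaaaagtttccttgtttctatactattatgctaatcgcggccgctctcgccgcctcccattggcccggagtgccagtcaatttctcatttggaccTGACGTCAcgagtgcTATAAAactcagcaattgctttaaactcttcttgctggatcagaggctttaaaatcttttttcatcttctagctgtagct
RFPL4A: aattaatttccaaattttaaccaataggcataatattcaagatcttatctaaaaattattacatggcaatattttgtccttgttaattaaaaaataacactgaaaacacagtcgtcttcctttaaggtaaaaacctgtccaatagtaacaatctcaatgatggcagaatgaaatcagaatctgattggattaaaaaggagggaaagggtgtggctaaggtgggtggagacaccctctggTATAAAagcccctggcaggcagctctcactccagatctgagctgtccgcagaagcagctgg
TATAAA began 30 bases before the start in FOSB, IVL and MAF, and 11 bases before it in RFPL4A. In RFPL4A it thus lies outside the 25 to 35 bases where a TATA box normally lies. The RefSeq start of RFPL4A is 83 bases from the start in the count table, against 23 in MAF and 1 in FOSB and IVL. The CRE core of FOSB lay 60, the cAMP response element of MAF 45 and the AP-1 site of IVL 123 bases before the start.

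On either strand, TATAAA was found in 9 of the 32 promoters (28.1%) and in 12.0% of 27305 RefSeq promoters of the same length. Read on the gene's strand and 25 to 35 bases before the start, where a TATA box normally lies, it was found in 6 of 32 (18.8%), namely FOSB, IVL, MAF, CYP1A1, HIST1H1D and HIST1H4B, and in 2.41% of all promoters. This window was chosen after the positions were seen. The AP-1 site was found in 4 promoters (12.5% against 7.76%), those of IVL, TNFRSF9, CLIP1-AS1 and ZNRF3-AS1. The CRE core was found in 7 (21.9% against 25%) and the cAMP response element in 1 (3.13% against 1.98%). Shares were also close for the GC box GGGCGG (50% against 44.6%), the CCAAT box (37.5% against 35.7%), the E-box CACGTG (9.38% against 7.43%), 1 arm of the p53 site (6.25% against 6.54%) and the serum response element (3.13% against 1.29%, CYP1A1 alone). GGACAG, from the right arm of the RE1 element bound by the repressor REST, was in 11 (34.4% against 20.5%), and its left arm TTCAGCACC, the EGR site GCGTGGGCG and the TCF/LEF site CTTTGAT were in none (0.403%, 0.784% and 2.64% of all promoters). Median GC content was 59.2% in the members and 58.3% in all promoters, and 50% against 48.9% had an observed to expected CpG ratio over 0.6. A match is a run of letters and not a measured site, and with 32 promoters 1 more match moves a share by 3.13 percentage points.

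**Figure D5:**
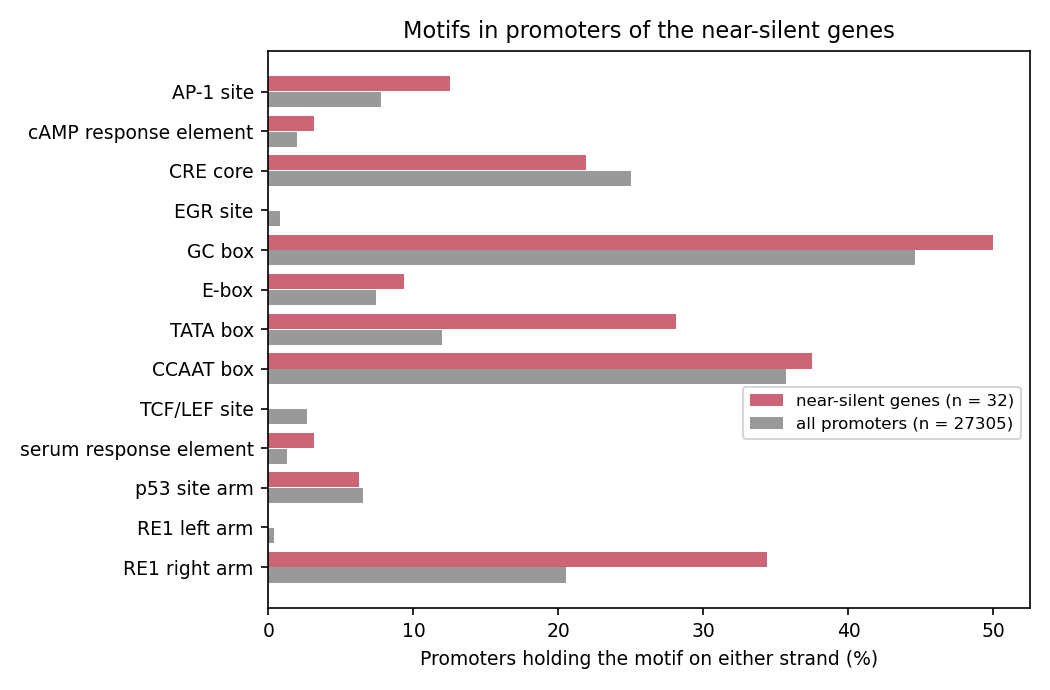
Share of promoters (x axis, %, bars from 0) that hold each of 13 motifs on either strand, for 32 members (red) and for 27305 RefSeq promoters (grey). The TATA box is at 28.1% against 12.0%, while the CRE core, CCAAT box and GC box are near the share of all promoters.

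The remaining lists held few or no members. Members were 81 of all 35474 listed genes, and at that share lists of these sizes hold few or none. Nothing is therefore read from a list with 0 or 1 member, here or above. The shares of called genes in these lists stand beside 4.72% higher and 3.74% lower over all genes tested. Interferons, cytokines and chemokines held 0 of 42, with 9 of 23 tested called higher (39.1%) and 1 lower. The 44 p53 target genes held 0, with 11 of 43 tested higher (25.6%) and 0 lower, among them BBC3, AEN and CDKN1A (log2 fold changes 2.96, 2.19 and 1.74). STMN4 was the only member of 31 histone deacetylase inhibitor-responsive genes, with 10 of 28 others higher (35.7%) and 0 lower. Hematopoietic and leukocyte genes beside TNFRSF9 had 6 of 25 higher (24%) and 2 lower, and muscle contractile genes (0 members of 49) 5 of 22 higher (22.7%) and 1 lower. Nearer to the share of all genes were cancer-testis and germ line genes (0 of 43), with 1 of 15 higher (6.67%) and 1 lower, ion channels and transmitter receptors (0 of 302), with 12 of 148 higher (8.11%) and 13 lower, and developmental factors beside TBX15, with 16 of 205 higher (7.80%) and 4 lower. Solute carriers (0 of 398) had 9 of 282 higher (3.19%) and 23 lower. Of the A549 markers 0 of 10 were higher and 1 lower, and of the 6 tested markers of other cell types 1 was higher and 1 lower.

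Spread among the siBAP18 libraries was compared with other genes of similar level, without a test. The members' median CV was 18.1% (range 3.47% to 44.2%), against 14.5% over 7684 other genes whose mean CPM in siBAP18 lay within the members' range. After TMM scaling replicate 1 was the highest of the 3 siBAP18 libraries in 41 members, replicate 2 in 15 and replicate 3 in 25, while among the 7684 genes the shares were 30.5%, 36.8% and 32.7%. The summed member level was highest in replicate 1, at 95.5 CPM, and lowest in replicate 3, at 82.9 CPM.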

How the data were processed

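Poly(A) RNA from 3 siBAP18 and 3 siCtrl samples of A549 cells was sequenced as strand-specific libraries. The authors deposited whole-number read counts per gene without normalization, with exon positions on GRCh38, and the same table as RPKM, which recomputed from the counts, listed gene lengths and column totals. The aligner, counting program and use of strand are not given in the sources used here, and the submitters' processing notes name the builds hg38 and GRCm38. Members were selected on the raw counts. The members, gene lists, motifs and tests were chosen with earlier results of these data known.

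The quasi-likelihood test of edgeR 4.0.16 (R 4.3.3; filterByExpr, TMM, group as the term, 6 libraries) was applied to the deposited counts, with Benjamini-Hochberg adjustment over 20776 genes. Calls required an adjusted p below 0.05 together with a log2 fold change beyond 1 in size. SE was taken as the size of that change over the root of the F statistic. Where each siCtrl library had at most 3 counts, folds were computed against 3 counts per library (0.0617 CPM on average). The steps were tested on simulated data, and the floor covers counting error only. A p-value measures the spread between 3 samples per group, described by the labels as replicate biosamples. No pair of replicates was a copy (chi-square per degree of freedom 4.17 to 25.8). DESeq2 1.42.0, limma 3.58.1 on log2(RPKM + 1) and log2(RPKM + 0.1), other scalings, filters and limits, a replicate block and leaving out each library were the alternatives.

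Genes were matched to GENCODE 29 by position or name (78 of 81 members). Overlaps and neighbours used the 35340 genes listed at 1 locus. Named genes are C17orf49, the 10 members with the highest RPKM, the 10 with the largest ratio, those next to each limit, up to 6 of each of 16 lists, up to 8 near another member or overlapping a called gene, the 4 with the largest and smallest CV, and up to 12 called immediate-early genes. Other names were chosen after their values were seen, and 1 member is not reported here by name. Figures were drawn with matplotlib 3.10.9 in Python 3.11.15.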

Additional observations from a re-analysis of the deposited data

How the results depend on the processing

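The number of near-silent genes gaining counts depended on its limits. It was 81 as given, 73 with counts scaled to the mean library total (65 of them shared with the 81) and 71 with TMM-scaled counts (63 shared), but 36 with at most 5 siCtrl counts, 26 with at most 3 and 20 with at least 40 siBAP18 counts. Leaving out 1 library gave 88 to 138 genes, 138 without siBAP18 replicate 3. The median log2 fold change of the members was 3.38, and 3.26 to 3.66 with 1 library left out. It was 1.92 with limma on log2(RPKM + 0.1) and 0.43 on log2(RPKM + 1), where the pseudocount exceeds the level of most members, and 66 and 17 of the 81 were then called. It was 4.19 over the 48 members that overlap no other gene, an alternative chosen after seeing the data. Requiring at least 10 counts in every library leaves no member, so no median was computed. Other scalings, DESeq2 and no filter left it between 3.36 and 3.41.

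The number of genes called was 1758 (981 higher, 777 lower), 1144 with limma on log2(RPKM + 0.1) and 341 on log2(RPKM + 1). It was 2051 (1190 higher, 861 lower) with no filter and 1195 (605 higher, 590 lower) with at least 10 counts in every library, a filter that removes all members, and 1714 to 1934 with 1 library left out. C17orf49 stayed called in each alternative, with a log2 fold change of -1.81 on log2(RPKM + 1) and between -2.72 and -2.52 otherwise. Replicate numbers did not pair the libraries (Pearson r of deviations across genes -0.017, 0.051 and 0.0038). With a replicate block 1741 genes were called, the median of the members was 3.39 and C17orf49 was at -2.65. At these depths a member rests on 20 to 372 counts per siBAP18 library.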
